A study of Mus musculus with 2 samples.

Results

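The Ly6 genes encode small cell surface proteins, and 8 of them (Ly6a, Ly6c1, Ly6c2, Ly6d, Ly6e, Ly6g, Ly6i and Ly6k) were taken by symbol from the 47643 genes of the deposited table. RNA sequencing was done on mouse macrophages that had arisen from bone marrow monocytes under lysophosphatidic acid (LPA, a bioactive phospholipid), and on bone marrow monocytes, with 1 library each. Both libraries came from total RNA of wild type C57BL/6 mice aged 6 weeks, purified with Trizol and prepared with a NEBNext Ultra kit. The labels carry the same protocol text for both libraries and do not tell how monocytes were purified, how long cells were cultured or whether the same animals gave both. No library is labelled as a culture without LPA, and the labels do not tell whether the monocytes were cultured. LPA therefore cannot be told apart from culture or from differentiation.

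Ly6 proteins are made as short precursors and are held on the outer face of the plasma membrane by a glycosylphosphatidylinositol (GPI) anchor, and they share a cysteine-rich fold called the LU domain. In mouse bone marrow they serve mainly as surface markers: Ly6C marks classical monocytes, Ly6G marks neutrophils, Sca-1 (the product of Ly6a) marks stem and progenitor cells, and Ly6D marks progenitors committed to B cells. Classical monocytes lose Ly6C from their surface as they become macrophages in many tissues. RNA levels measured here do not give surface protein.

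Levels are unique exon reads in CPM, scaled by the total of 16726342 such reads in the macrophage library and 12473180 in the monocyte library. Intervals are exact 95% intervals that cover counting error only, and no difference has a replicate check or a p-value. A gene passed the floor at 5 CPM in at least 1 library (83.6 reads in macrophages, 62.4 in monocytes), as 10407 genes did. Markers of the labelled cell types were checked first. Each of 11 macrophage genes reached a difference of 2-fold or more in favour of the macrophages (39066 CPM in sum, against 1420.0 CPM in monocytes). Of 14 classical monocyte genes, 11 were at least 2-fold lower (1919 CPM in sum in macrophages, against 10264 CPM in monocytes), and no gene of either list was at 0 in either library.

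Most Ly6 genes had lower RNA levels in the macrophages. Of the 8 genes, 6 passed the floor (Ly6i and Ly6k did not), and on the log2(CPM + 1) scale 0 of these were at least 2-fold higher, 4 were at least 2-fold lower (Ly6c1, Ly6c2, Ly6d and Ly6e) and 2 (Ly6a and Ly6g) lay within 2-fold. Over all 10407 genes, 13.8% were at least 2-fold higher, 19.9% at least 2-fold lower and 66.2% within 2-fold. The median log2 ratio of the 6 genes was -2.34, beside -0.23 over all genes. Ly6c1 (1.08 CPM in macrophages, 13.5 CPM in monocytes) and Ly6d (0.179 CPM and 7.70 CPM) passed the floor through the monocyte library only. Their calls and their weight in this median therefore rest in part on the floor rule. After centring on the median of all genes Ly6a passed 2-fold as well, so that 1 member was higher, with 17.4% of all genes higher and 14.6% lower. Together the 8 genes had 8355 reads (499.5 CPM) in macrophages and 42659 reads (3420.1 CPM) in monocytes, which is 6.85-fold lower (6.69 to 7.01). In bulk libraries like these, fewer cells of a type and less RNA per cell cannot be told apart.

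**Figure D1:**
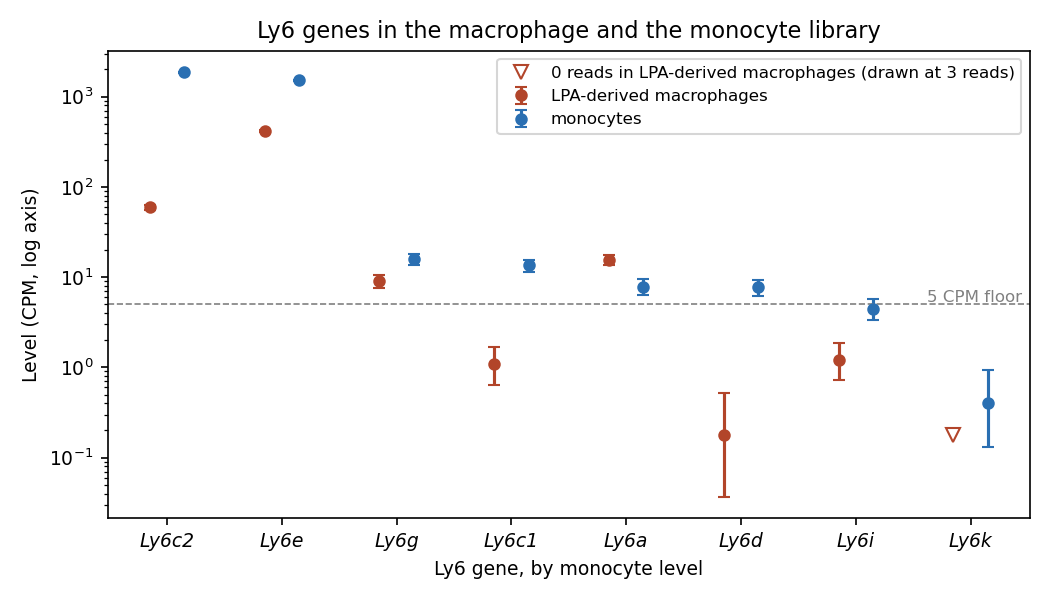
Level of each Ly6 gene in CPM (log axis) in LPA-derived macrophages and in monocytes, with exact 95% counting intervals and the 5 CPM floor as a dashed line. Ly6a is the only gene whose macrophage point lies above its monocyte point, and Ly6k, with 0 macrophage reads, is drawn at 3 reads.

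The members differed by unequal factors, so the make-up of the Ly6 reads was another one in the macrophages. Ly6e took 82.8% (82.0 to 83.6) of all Ly6 reads in macrophages and 44.5% in monocytes, with intervals that do not overlap. Ly6c2 took 11.8% (11.1 to 12.5) in macrophages and 54.1% (53.6 to 54.5) in monocytes. By reads, the macrophages thus had an Ly6 signal mostly of Ly6e, whereas in monocytes Ly6c2 and Ly6e shared it. Read shares take no account of transcript length. Per kilobase of the longest coding transcript, Ly6c2 had 2249.6 CPM and Ly6e 667 CPM in monocytes, and 71.9 CPM and 181.3 CPM in macrophages. Ly6a made up 3.09% of the Ly6 reads in macrophages and 0.230% in monocytes. Without Ly6c1 and Ly6c2, the 6 other genes summed to 439.4 CPM in macrophages and 1557 CPM in monocytes, 3.54-fold lower (3.45 to 3.64).

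**Figure D2:**
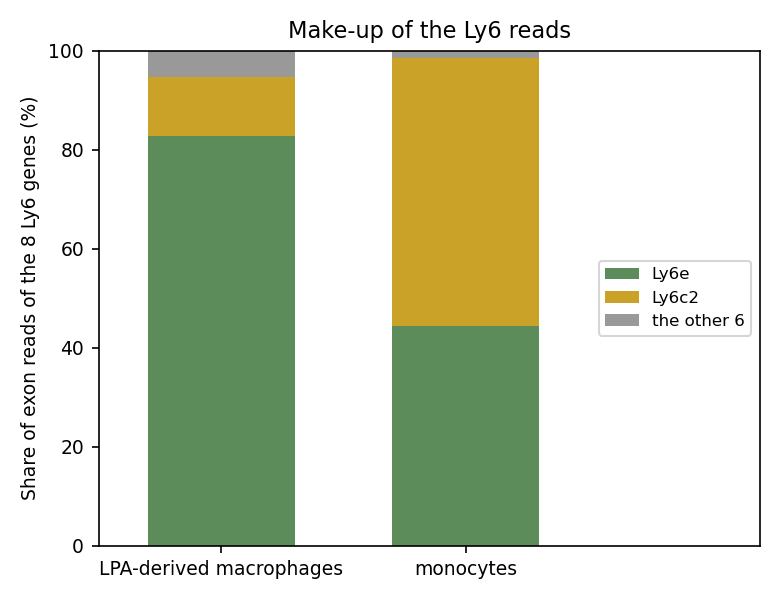
Share of the exon reads of all 8 Ly6 genes that fell on Ly6e, on Ly6c2 and on the other 6, in LPA-derived macrophages and in monocytes. Shares are of reads and take no account of transcript length. Ly6e holds 82.8% in the macrophages and 44.5% in the monocytes, and Ly6c2 holds 11.8% in the macrophages and 54.1% in the monocytes.

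Ly6c2 and Ly6c1 encode the Ly6C proteins of classical monocytes. They are near-identical copies, and only reads that the authors classed as unique were counted, so how far the counts separate them depends on the bases that differ. Their coding sequences are shown for that reason, from GENCODE M21 on GRCm38, as the stretches before (bases 1 to 65) and after (bases 254 to 393, without the stop codon) a run of 188 identical bases, with the bases that differ in capitals.
Ly6c2 before: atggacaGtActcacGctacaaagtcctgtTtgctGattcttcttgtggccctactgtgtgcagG
Ly6c1 before: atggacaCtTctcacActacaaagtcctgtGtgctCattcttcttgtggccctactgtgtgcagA
Ly6c2 after: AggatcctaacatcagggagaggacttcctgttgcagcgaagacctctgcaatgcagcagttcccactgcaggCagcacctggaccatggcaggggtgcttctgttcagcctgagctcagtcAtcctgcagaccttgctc
Ly6c1 after: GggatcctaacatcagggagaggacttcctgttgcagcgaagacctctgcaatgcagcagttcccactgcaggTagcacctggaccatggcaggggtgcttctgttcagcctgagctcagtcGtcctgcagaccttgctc
Each has 393 bases, of which 9 differ, 6 before the identical run and 3 after it. At 97.7% they are the closest pair in the family. The other 9 pairs among Ly6a, Ly6c1, Ly6c2, Ly6g and Ly6i were 77.4% to 86.3% identical, and the 18 pairs with Ly6d, Ly6e or Ly6k were 45.1% to 52.3% identical.

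Ly6c2 (chr15:75108158-75111970, minus strand) had the largest difference in CPM of the family, while Ly6d, at few reads, had the larger fold. It had 988 reads (59.1 CPM, 55.4 to 62.9) in macrophages and 23065 reads (1849 CPM, 1825 to 1873) in monocytes, 31.3-fold lower (29.4 to 33.4). It ranked 3509 by CPM among all genes in macrophages and 28 in monocytes, and its log2 ratio of -4.94 was 27th lowest among the 10407 genes. Reads across exon junctions gave 30.0-fold lower (27.1 to 33.4), and the authors' deposited table gives a fold of 32.0 lower. Genes of classical monocytes were low in macrophages beside it. Plac8, a cytosolic protein of monocytes, was 63.5-fold lower, the clotting factor subunit F13a1 58.9-fold lower and Ms4a3, a membrane protein of granulocyte-monocyte progenitors, 65.8-fold lower. Ccr2, the chemokine receptor that with Ly6C defines these cells, stood at 67.7 CPM in macrophages and 642.3 CPM in monocytes, 9.48-fold lower. The list as a whole had a median log2 ratio of -2.87, with 1 of 14 higher.

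Ly6c1 (chr15:75044018-75048830, minus strand) was far less abundant than Ly6c2. It had 18 reads (1.08 CPM, 0.638 to 1.70) in macrophages and 168 reads (13.5 CPM, 11.5 to 15.7) in monocytes, 12.5-fold lower (7.68 to 21.6). The libraries' intervals did not overlap. Its monocyte reads were nearly all of 1 kind: 162 of 168 (96.4%, 92.4 to 98.7) crossed an exon junction, against 12 of 18 (66.7%, 41.0 to 86.7) in macrophages. Only 0.401% of the 8986 genes with at least 100 monocyte reads had a share as high. For Ly6c2 the share was 38.4% in macrophages and 36.8% in monocytes, and over all genes it was 44.0% in macrophages and 46.4% in monocytes. Reads across junctions alone gave Ly6c1 as 18.1-fold lower (10.1 to 35.8), a count chosen after the data were seen.

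How much of each copy is its own sequence was measured on the annotated transcripts. Of the 50-base windows of Ly6c1, 67.2% occur in no other gene and 21.5% are shared with Ly6c2. For Ly6c2, 85.5% of the windows occur in no other gene and 13.9% are shared with Ly6c1. Among Ly6c1 windows that cross a junction 49.8% occur in no other gene, and among those within an exon 72.4%. The read length is not stated, and with 100-base windows the shares over all windows were 89.9% for Ly6c1 and 94.2% for Ly6c2. The split of reads between the copies is therefore uncertain. Their sum does not depend on that split. It can still depend on reads left out as not unique and on reads that also fit other genes. Of the 578 Ly6c1 windows of 50 bases found in another gene, 379 are shared with Ly6c2, and Ly6c1 also shares windows with Ly6a. Summed, Ly6c1 and Ly6c2 had 60.1 CPM in macrophages and 1863 CPM in monocytes, 31.0-fold lower (29.1 to 33.0).

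**Figure D3:**
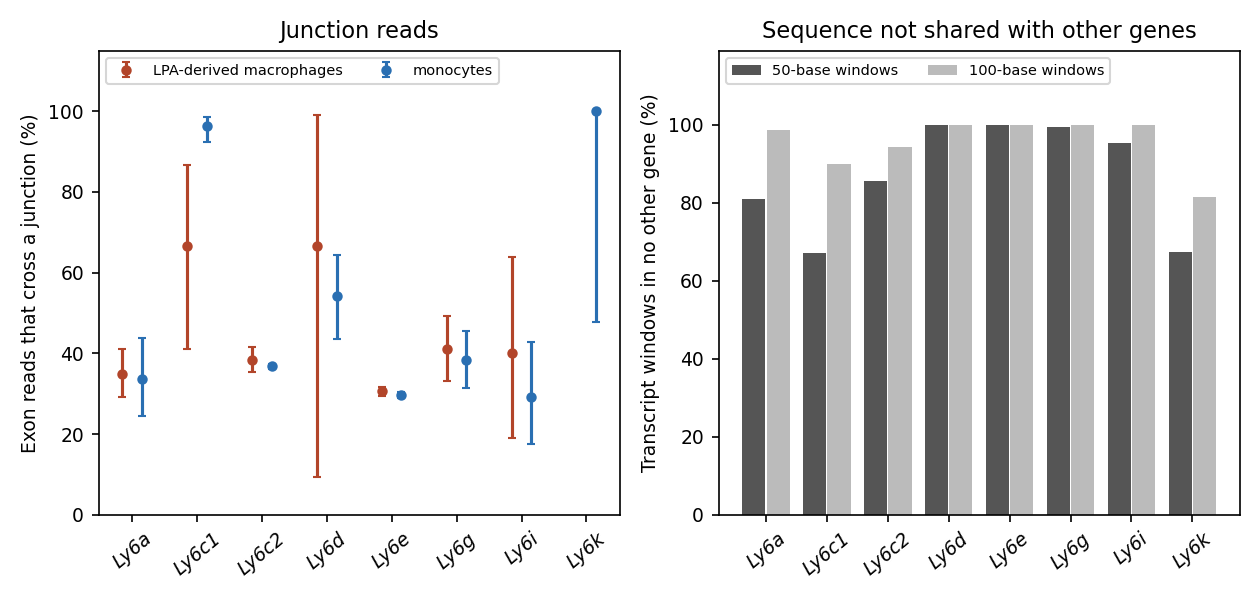
Left, share of each gene's exon reads that cross an exon junction in LPA-derived macrophages and in monocytes, with exact 95% counting intervals. Right, share of 50-base and 100-base windows of its annotated transcripts found in no other gene: Ly6c1 has the highest monocyte junction share (96.4%) of the 6 Ly6 genes past the floor and, at 67.2%, the lowest share of 50-base windows of its own.

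Ly6e (chr15:74955051-74959905, plus strand) is an interferon-inducible member found on many cell types, and it had the most Ly6 reads in the macrophages. It had 6917 reads (413.5 CPM, 404 to 423) in macrophages and 18976 reads (1521 CPM, 1499.8 to 1543) in monocytes, 3.68-fold lower (3.58 to 3.78). It ranked 329 in macrophages and 44 in monocytes. No 50-base window of it was found in another gene. Of 22 interferon-stimulated genes listed beside it, 14 were at least 2-fold lower and 0 higher, with a median log2 ratio of -1.40. Mx1, an antiviral GTPase, was 7.78-fold lower (10.6 CPM in macrophages, 82.8 CPM in monocytes). The chemokine Cxcl10 was 21.5-fold lower, and Zbp1, a nucleic acid sensor, 6.85-fold lower. The part of interferon in the level of Ly6e or of any other member was not tested.

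Ly6a, whose protein is Sca-1, went the other way. At chr15:74994877-74998031 (minus strand) it had 258 reads (15.4 CPM, 13.6 to 17.4) in macrophages and 98 reads (7.86 CPM, 6.38 to 9.57) in monocytes, 1.96-fold higher (1.55 to 2.50). Its log2 ratio of 0.89 was under 2-fold with the main scaling and 1.12 after centring on the median of all genes, and the authors' deposited table gives a fold of 2.10 higher. The 50-base windows found in no other gene made up 81.0% of its transcripts. Sca-1 is also found on activated lymphocytes and on endothelial cells, so markers of these were read beside it. Of 9 stem and progenitor genes that passed, 6 were 2-fold or more lower and 2 higher, with sums of 76.3 CPM in macrophages and 475.5 CPM in monocytes. Myb, a transcription factor of progenitors, was 25.5-fold lower, the receptor kinase Flt3 40.2-fold lower and Cd34 15.1-fold lower. Of 5 endothelial and stromal genes past the floor 4 were lower and 1 was higher (Col3a1, 10.9 CPM in macrophages and 0.641 CPM in monocytes). The list had sums of 911.7 CPM in macrophages and 1837 CPM in monocytes. The collagen Col1a1 (446.8 CPM in macrophages, 919.4 CPM in monocytes) and Col1a2 (416.9 CPM in macrophages, 839.1 CPM in monocytes) made up most of these sums, and the endothelial adhesion molecule Pecam1 stood at 30.3 CPM in macrophages and 62.1 CPM in monocytes. For T and NK cells 2 of 10 genes passed, Cd4 higher and Nkg7 lower, with sums of 22.5 CPM in macrophages and 122.3 CPM in monocytes. The part of any of these cells in the Ly6a level was not tested.

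Ly6i (chr15:74979534-74983430, minus strand), a close relative of Ly6a, stayed under the floor in both libraries. It had 20 reads (1.20 CPM, 0.730 to 1.85) in macrophages and 55 reads (4.41 CPM, 3.32 to 5.74) in monocytes, 3.69-fold lower (2.18 to 6.50). Its intervals did not overlap between the libraries, and 95.2% of its 50-base windows are found in no other gene.

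Ly6g (chr15:75155240-75159126, plus strand), the neutrophil antigen, was detected in both libraries. It had 151 reads (9.03 CPM, 7.65 to 10.6) in macrophages and 196 reads (15.7 CPM, 13.6 to 18.1) in monocytes, 1.74-fold lower (1.40 to 2.17), with intervals that do not overlap. The authors' deposited table gives a fold of 1.53 lower. Intron reads were 5.63% (2.60 to 10.4) of its gene reads in macrophages and 0.508% (0.0129 to 2.80) in monocytes, and these intervals just overlap. Over all genes intron reads were 9.90% in macrophages and 14.1% in monocytes.

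Genes of neutrophils were present beside it. All 16 on the list passed the floor, with sums of 7885 CPM in macrophages and 28681 CPM in monocytes and none at 0 in either library, and 11 were at least 2-fold lower and 5 higher. Those lower were led by the granule proteins Mpo (90.4-fold lower), Fcnb (66.2-fold lower) and Elane (55.1-fold lower). Those higher were Cxcr2, Csf3r, Retnlg, Mmp8 and Mmp9. Mpo and Elane are known to be transcribed in granulocyte-monocyte progenitors too. The part of neutrophils or their precursors in the Ly6 levels was not tested.

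Ly6d (chr15:74762056-74763620, minus strand) was nearly absent from the macrophage library. It had 3 reads (0.179 CPM, 0.0370 to 0.524) in macrophages and 96 reads (7.70 CPM, 6.23 to 9.40) in monocytes, 42.9-fold lower (14.2 to 211.7). All of its windows are its own. Because 3 macrophage reads set the ratio, its size is known within a wide range. Genes of B lymphocytes and plasmacytoid dendritic cells, which carry Ly6D among their progenitors, were read beside it. Of 12 B lineage genes 5 passed, 3 at least 2-fold lower and 1 higher (Il7r at 457.0 CPM in macrophages and 4.33 CPM in monocytes, which sets the sums of 472.2 CPM and 69.1 CPM), with 3 at 0 in macrophages and 1 in monocytes. Dntt, the lymphoid DNA polymerase, had 0 reads in macrophages and 318 in monocytes, and the B cell factor Pax5 was 23.1-fold lower. Of 4 plasmacytoid dendritic cell genes past the floor 3 were lower, with sums of 131.0 CPM in macrophages and 224.9 CPM in monocytes, and their surface lectin Siglech had 1 read in macrophages and 131 in monocytes. Their part in the Ly6d level was not tested.

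Ly6k (chr15:74796874-74799986, minus strand), a gene of the testis needed for sperm function, was at the limit of detection. It had 0 reads in macrophages (a floor of 3 reads is 0.179 CPM) and 5 reads (0.401 CPM, 0.130 to 0.935) in monocytes. Against that floor the monocyte level is 2.23 times as high, and the exact interval, which also covers the error of the 5 reads, allows a difference as small as 1.23-fold lower. All 5 crossed a junction. Its exons overlap the antisense gene Gm17189, which had 0 reads in both libraries, and 32.7% of its 50-base windows are shared with it.

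**Figure D4:**
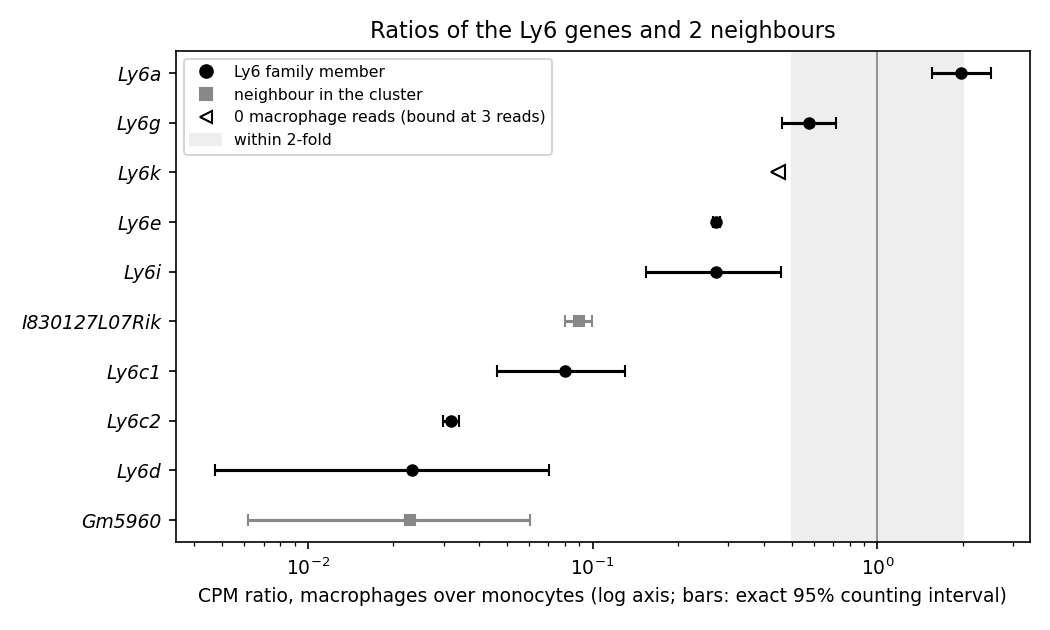
Ratio of CPM in LPA-derived macrophages over monocytes (log axis) for the 8 Ly6 genes and 2 neighbours in the cluster, with exact 95% counting intervals. Ly6d, Ly6c2 and Ly6c1 lie far left, Ly6a alone lies right of 1, and Ly6k, with 0 macrophage reads, is drawn against the floor of 3 reads.

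Levels of different members can be compared only per length, as CPM per kilobase of exon. In macrophages the order was Ly6e (137.7), Ly6c2 (21.6), Ly6a (12.8) and Ly6g (9.58), each separated from the next beyond counting error. Below them Ly6i (1.03), Ly6c1 (0.642), Ly6d (0.241) and Ly6k (0) followed, and neighbours among these overlapped. In monocytes the order was Ly6c2 (674.9), Ly6e (506.4), Ly6g (16.7), Ly6d (10.3), Ly6c1 (8.03), Ly6a (6.52), Ly6i (3.81) and Ly6k (0.484). Ly6d with Ly6c1, and Ly6c1 with Ly6a, did not differ beyond counting error there. Ly6a thus had place 3 in macrophages and place 6 in monocytes. The exon length of Ly6c2 (2740 bases) includes a retained-intron transcript of 2680 bases, while its longest coding transcript has 822. Over the longest coding transcripts Ly6c2 had 71.9 in macrophages and 2249.6 in monocytes, and Ly6e 181.3 in macrophages and 667 in monocytes, with the same order of these genes. The places of Ly6c1 depend on that choice. On coding length it had 1.28 in macrophages and 16.0 in monocytes, which put it above Ly6i in macrophages (within counting error) and above Ly6d (10.3) and Ly6a (8.23) in monocytes, beyond counting error, and within counting error of Ly6g (16.7).

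All 8 genes lie in 1 cluster on chromosome 15 (chr15:74762056-75159126, 397.1 kb), 6 on the minus and 2 on the plus strand. The table has 24 genes in the span, of which 16 are not members, and only 2 of those passed the floor. Both were lower in the macrophages. I830127L07Rik, annotated in GENCODE as a transcribed pseudogene and in RefSeq as the protein-coding Ly6a2, lies between Ly6c2 and Ly6g. It had 373 reads (22.3 CPM) in macrophages and 3114 reads (249.7 CPM) in monocytes, 11.2-fold lower (10.1 to 12.5). Gm5960, a pseudogene between Ly6c1 and Ly6c2, had 4 reads in macrophages and 130 in monocytes, 43.6-fold lower (16.6 to 162.4). Of the other genes, 10 had no exon reads and 4 had 1 to 9 (Cyp11b2, 2010109I03Rik, Gm8000 and Gm28068). RefSeq names 2010109I03Rik as Ly6m. The members within 2-fold are not neighbours of each other: Ly6a sits between Ly6i and Ly6c1, and Ly6g ends the cluster beyond Ly6c2 and I830127L07Rik.

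**Figure D5:**
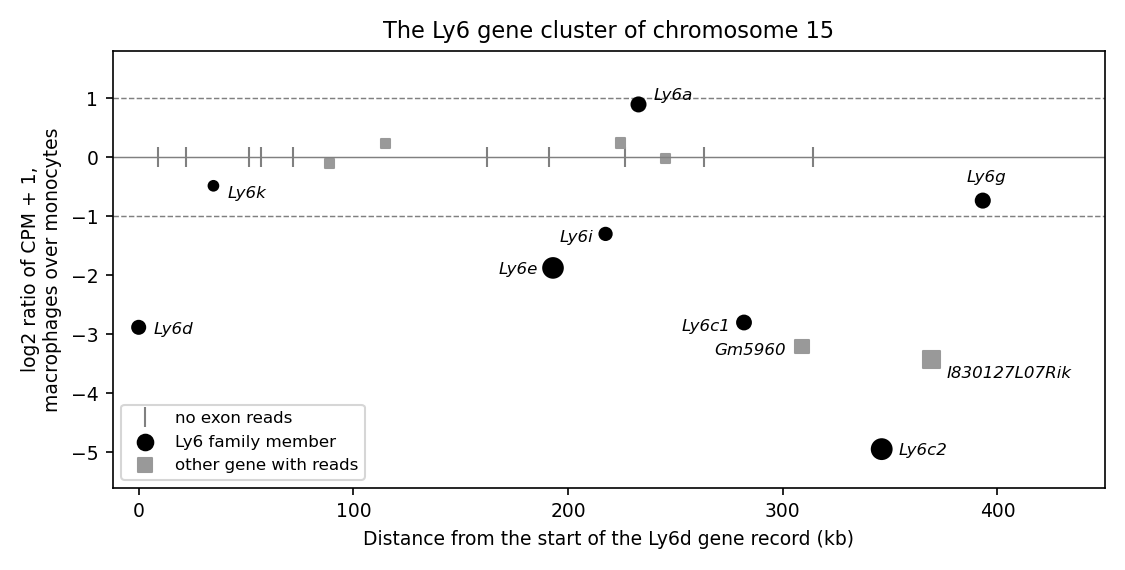
Log2 ratio of CPM + 1, macrophages over monocytes, of each gene against its distance in kb from the start of Ly6d. Larger symbols mean higher levels, ticks at 0 mark genes with no exon reads, and the lines at 1 and -1 mark 2-fold: Ly6c2 is lowest at -4.94 and Ly6a is the one member above 0.

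The region upstream of the transcription start was compared for the genes at the Ly6c2 end of the cluster, since these neighbours had unequal ratios (Ly6c2 31.3-fold, I830127L07Rik 11.2-fold, Ly6c1 12.5-fold and Ly6g 1.74-fold lower). Of the 8 members, 3 (Ly6c1, Ly6c2 and Ly6g) matched the RefSeq promoter table (GRCm38.p6). The 250 bases before the RefSeq start are shown with matches to GAGGAAGT, a motif of the myeloid factor PU.1, in capitals. The windows are Ly6c2 at chr15:75111972-75112221 (minus strand), Ly6a2, which is I830127L07Rik, at chr15:75135129-75135378 (minus strand), Ly6c1 at chr15:75048838-75049087 (minus strand) and Ly6g at chr15:75155079-75155328 (plus strand). RefSeq has 2 starts each for Ly6c2, Ly6c1 and Ly6g. For Ly6c2 the start farther upstream was taken, and for Ly6c1 and Ly6g the window that aligns best to that Ly6c2 window. The Ly6g window runs past the start in the deposited table, with its last 89 bases inside that gene record.
Ly6c2: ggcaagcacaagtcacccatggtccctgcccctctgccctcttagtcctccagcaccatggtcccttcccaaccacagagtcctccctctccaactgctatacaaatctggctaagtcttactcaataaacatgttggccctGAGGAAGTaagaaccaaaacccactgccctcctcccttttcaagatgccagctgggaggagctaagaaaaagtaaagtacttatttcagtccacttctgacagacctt
Ly6a2: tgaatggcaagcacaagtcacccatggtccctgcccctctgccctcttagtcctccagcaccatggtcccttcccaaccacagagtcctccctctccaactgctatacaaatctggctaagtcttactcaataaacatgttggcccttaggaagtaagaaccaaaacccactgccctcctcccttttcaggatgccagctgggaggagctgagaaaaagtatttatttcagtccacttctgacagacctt
Ly6c1: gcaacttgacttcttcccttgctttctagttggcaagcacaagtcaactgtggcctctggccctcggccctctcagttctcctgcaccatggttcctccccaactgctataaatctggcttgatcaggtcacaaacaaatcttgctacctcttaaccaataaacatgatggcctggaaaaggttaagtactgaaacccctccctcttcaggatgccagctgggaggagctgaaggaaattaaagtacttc
Ly6g: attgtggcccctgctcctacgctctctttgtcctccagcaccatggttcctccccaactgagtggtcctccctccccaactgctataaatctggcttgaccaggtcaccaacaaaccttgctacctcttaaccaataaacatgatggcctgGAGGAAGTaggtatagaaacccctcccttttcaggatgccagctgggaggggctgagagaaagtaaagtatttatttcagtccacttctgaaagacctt
Against the Ly6c2 window, that of Ly6a2 was 94.5% identical, that of Ly6g 69.0% and that of Ly6c1 57.7%. The values of Ly6g and Ly6c1 are the higher of their windows by choice, and the windows not shown were 42.5% and 42.0% identical. Each window not shown overlaps the one shown for its gene, so these values depend on where a window is cut. The Ly6c2 window not shown (chr15:75111938-75112187) covers most of the same DNA. Its 76.1% identity to the one taken reflects the offset of the 2 windows, not differing bases. GAGGAAGT begins 108 bases before the RefSeq start in Ly6c2 and 99 bases before it in Ly6g, which is 10 bases before the deposited start of Ly6g. It is not in the windows shown for Ly6a2 and Ly6c1, but the Ly6c1 window not shown holds 1 match, so its presence there depends on the start taken. That Ly6c1 window (chr15:75048664-75048913) runs past the deposited start at 75048830, with most of its bases inside that gene record. The windows not shown hold 2 matches for Ly6c2 and 1 for Ly6g, but these are not all further sites. The Ly6g match is the site already shown. Of the 2 Ly6c2 matches, 1 is the site already shown. The other reaches past the end of the window shown, near where the deposited gene record begins. GAGGAAGT is in 2.44% of 27025 promoters of that length. The interferon-stimulated response element (3.04% of promoters), TTGCNNAA (C/EBP, 9.55%) and TTCNNNGAA (GAS, 7.18%) had no match in the 4 windows on either strand, and the Ly6g window not shown holds 1 match to TTGCNNAA. TATAAA (a core promoter motif, 12.97%) was found 143 bases before the RefSeq start in Ly6c1 and 167 before it in Ly6g. The Ly6g window not shown holds the same TATAAA of Ly6g again, and the Ly6c1 window not shown holds 0. The motifs did not overlap, and a match in letters is not a bound site.

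Other genes of the LU domain superfamily were mostly under the floor. Of 31 listed, 28 were found in the table by symbol and 2 of these passed the floor, while 17 had 0 reads in macrophages and 19 in monocytes. Ly6m, also listed, stands there as 2010109I03Rik, with 6 reads in macrophages and 2 in monocytes. Cd59a, an inhibitor of complement, stood at 8.07 CPM in macrophages and 1.60 CPM in monocytes, 5.03-fold higher (3.13 to 8.50). Plaur, the urokinase receptor, stood at 159.7 CPM in macrophages and 434.9 CPM in monocytes, 2.72-fold lower (2.60 to 2.85). Under the floor, Ly6g6f had 74 reads in macrophages and 8 in monocytes, 6.90-fold higher (3.32 to 16.6), and Lynx1 had 35 reads in macrophages and 34 in monocytes.

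For each member past the floor, the genes nearest in log2(CPM + 1) over the 2 libraries were found among 10058 genes. For Ly6c2 they were Camp (74.4 CPM in macrophages, 1802 CPM in monocytes), Elane and Hmgb2, at distances of 0.33, 1.00 and 1.06. The Ly6e level lay nearest to that of Ptma, Rpsa and Tubb5 (0.17, 0.28 and 0.30). Nearest to Ly6a were Ttl, Cib2 and Ppic, to Ly6c1 Ms4a4b, Dscc1 and Kbtbd11, to Ly6d Egfl7, Ces2g and Smim5, and to Ly6g Dnaaf2, Ptpn4 and Pgm3. With 2 values per gene such closeness describes level only.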

How the data were processed

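The labels put 1 library in each group. Per the file headers, the authors deposited 1 table with whole-number counts of reads per gene, on exons, on introns and across exon junctions. They also deposited RPKM (scaled by exon length and library total), a normalized signal with the same sorted values in both libraries, a fold change of that signal written as a signed score, an FDR-corrected p-value of 1 library against 1 (not used here), and numbers of transcripts and positions in bases. The aligner and any use of strand were not given in the sources used here. By the submitters' processing notes the build is mm9, but the coordinates are those of GRCm38: 47224 gene identifiers are in GENCODE M21, 40773 of them with the same coordinates, including all 8 members. Reads not classed as unique were 0.0596% of gene reads in macrophages and 0.0578% in monocytes, and no member had any. The counts do not tell whether reads that fit more than 1 member were left out earlier or placed on 1 gene. Total exon reads equal unique exon reads in every gene.

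From unique exon reads, CPM, exact Poisson intervals of levels and exact Clopper-Pearson intervals of ratios, conditional on the summed reads, were computed (Python 3.11.15, scipy 1.17.1). Reads lack molecular identifiers and so are not independent molecules. Intervals and the floor of 3 reads for a count of 0 (0.179 CPM in macrophages, 0.241 CPM in monocytes) cover counting error only. A call is a 2-fold difference on log2(CPM + 1), which understates folds of low genes, for genes at 5 CPM or more in at least 1 library. Procedures were tested on simulated data. TMM factors came from edgeR 4.0.16 in R 4.3.3, as an alternative scaling only. With 1 library per group no test was made.

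Members, lists and rules were chosen with earlier results of these data known. Named genes are all members, up to 3 genes per list with the largest absolute log2 ratio past the floor (some left out for length), LU domain genes past the floor, 3 nearest genes per member and genes between the outermost members. Genes named outside that rule (Ccr2, Cxcr2, Csf3r, Retnlg, Mmp8, Mmp9, Col1a2, Pecam1, Ly6g6f and Lynx1) were chosen after their values were seen. Lists for eosinophils, basophils and mast cells (3 of 7 at least 2-fold lower) and for erythroid cells (6 of 6 lower, 4 at 0 in macrophages) were also read, as were patrolling monocytes (5 of 8 lower). Coding sequences are from GENCODE M21 and promoters from RefSeq, GRCm38.p6. Where RefSeq gives several starts, the window of the start farther upstream is shown for Ly6c2. For the other genes the window that aligns best to that of Ly6c2 is shown.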

Additional observations from a re-analysis of the deposited data

How the results depend on the processing

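In 15 alternatives (other pseudocounts, floors, scalings, counts, call sizes, the deposited values and, chosen after seeing the data, junction reads), no ratio changed direction. Leaving aside total exon reads, which equal the unique ones, direction was the same in 111 of 111 member values and the call in 101. Floors and call sizes leave a ratio as it is, and a pseudocount cannot change its sign. For these alternatives the direction was fixed in advance, so the 111 values are not all separate checks of it. The number of members at least 2-fold higher was 1 (Ly6a) in place of 0 with TMM factors, with totals that leave out the 20 highest genes, after centring on the median, with the deposited fold change and with a call at 1.5-fold. Of all genes, 17.1%, 16.4%, 17.4%, 16.2% and 20.8% were then higher. The number at least 2-fold lower lay between 3 and 5: a floor of 1 CPM (19.8% of all genes lower) or none (5.203%) added Ly6i, a call at 1.5-fold (33.5%) added Ly6g, a floor of 10 CPM (19.7%) lost Ly6d and a call at 4-fold (6.70%) lost Ly6e. It was 4 with TMM factors (14.98% of all genes lower). Log2 ratios lay between -5.00 and -4.71 for Ly6c2, -3.54 and -2.57 for Ly6c1, -5.49 and -2.65 for Ly6d, -1.88 and -1.64 for Ly6e, -0.79 and -0.50 for Ly6g and 0.89 and 1.12 for Ly6a. The wide ranges of Ly6c1 and Ly6d belong to genes with 18 and 3 macrophage reads. No paired analysis was possible because each group has 1 library. Depth limits Ly6d, Ly6i and Ly6k most.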

Other observations

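The enzymes that make and attach the GPI anchor, on which Ly6 proteins depend for their place at the surface, stood at similar levels in both libraries. Of 25 past the floor, 1 was 2-fold higher or more, 2 were lower and 22 were within 2-fold, with a median log2 ratio of -0.06. Pgap1, which remodels the anchor, was 3.58-fold higher (3.23 to 3.99), at 122.4 CPM in macrophages and 34.2 CPM in monocytes. Piga, of the first step of synthesis, was 2.90-fold lower, and Pigo, which adds ethanolamine phosphate, 2.27-fold lower.

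Other GPI-anchored proteins showed no common direction. Of 15 with enough reads to pass the floor, 5 were higher by 2-fold or more, 2 lower and 8 within 2-fold. Their median log2 ratio was 0.04, beside -2.34 for the 6 Ly6 genes. Among the latter, Ly6c1 and Ly6d passed the floor in monocytes only. Folr2, a folate receptor of macrophages, had 1293 reads (77.3 CPM) in macrophages and 4 reads (0.321 CPM) in monocytes, 241-fold higher (93.9 to 886). The glypican Gpc4 was 5.92-fold higher. The adhesion molecule Ceacam1, 3.50-fold lower, was on the list and counts among the 2 lower, but it is a transmembrane protein.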
